A study of Mus musculus with 24 samples.

Results

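The light response of the dorsal suprachiasmatic nucleus (SCN) was read from 8 of the 24 arrays of the series, chosen by their titles. Pulsed and sham-treated dorsal SCN contributed 4 arrays each, and the other 16 arrays held ventral and central SCN of the same treatments. All animals were C57BL/6 mice, obtained at 8 weeks of age and kept in constant dim red light for at least 7 days, so that no cue told them the time. The pulsed group then received 30 min of light, timed to advance the clock, and the sham group a sham treatment. Brains were taken 3.5 h later, and the subregions were cut by laser microdissection from haematoxylin-stained sections of 25 μm. The RNA, carried through purification by added bacterial ribosomal RNA, was amplified and labelled batch-wise, per the labels, and each title names a batch, A or B. Batch A holds replicates 1 and 2 of every group, and batch B the other two. No transgene or drug was used in any group, per the labels, and nothing in the labels ties arrays to animals or tells whether animals were pooled.

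The SCN is the master circadian clock of mammals, and its neurons keep time through a feedback loop in which BMAL1 and CLOCK switch on Period and Cryptochrome genes whose proteins later shut the pair down. Light reaches the SCN through the retinohypothalamic tract, which releases glutamate and PACAP mainly in the ventral core. Calcium and kinase signalling there act on CREB at immediate early genes and at Per1 and Per2. The dorsal part, often called the shell, is rich in vasopressin neurons, receives less direct retinal input and is reached by signals from the core. The comparison therefore asks what a phase-advancing pulse had done to transcripts of the dorsal region some hours after the light.

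Values are deposited log2 expression values, 1 per probe set and array, and batch A lay lower than batch B, with array medians of 3.52 to 3.62 against 4.81 to 5.07. Pulsed and sham arrays are therefore set against each other within a batch, and the main fits, with and without pulsed array 4, carried the batch as a term. Pulsed array 4 stood apart in RNA quality. Its 3′ minus 5′ Gapdh difference was 5.41, against 0.887 to 1.07 on the other 11 arrays of batch B and 2.02 to 3.28 in batch A. Its median correlation with the arrays of its batch was 0.872, against 0.976 or more for the others. Counts are given with all 4 pulsed arrays and with this array left out.

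**Figure D1:**
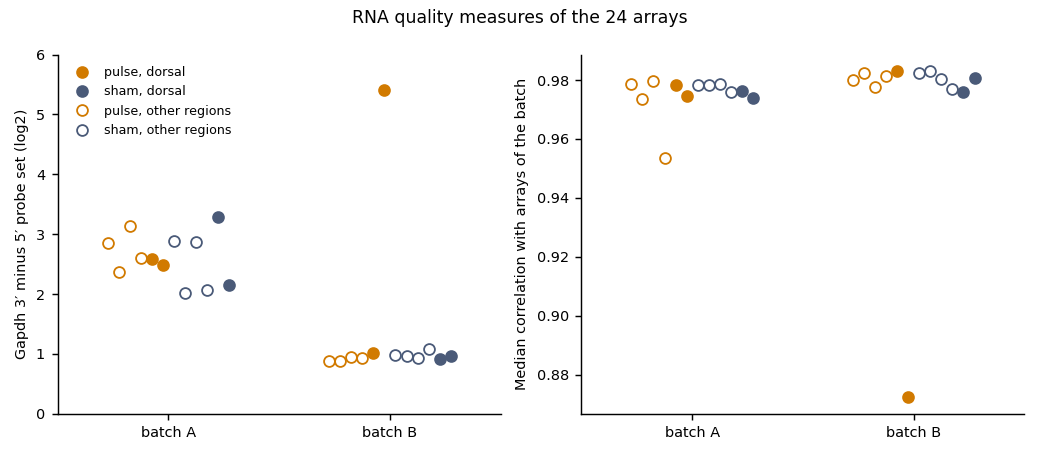
Left, the log2 difference between the 3′ and the 5′ control probe set of Gapdh on each of the 24 arrays, by batch. Right, the median correlation of each array with the others of its batch. Filled points are dorsal SCN arrays and open points the other subregions, and the pulsed dorsal array at 5.41 on the left and 0.872 on the right is replicate 4.

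The region labels were set against marker genes on the sham arrays. Mean Avp, the vasopressin gene, was 7.79 in batch A and 9.37 in batch B in dorsal SCN, against 6.44 and 7.88 in ventral SCN. Mean Vip, a core peptide, was 7.58 and 9.35 in dorsal against 12.1 and 12.8 in ventral SCN. The core markers Grp and Calb2 were also lower in dorsal SCN in both batches, and the shell markers Prok2, C1ql3 and Nmu had higher means. Nmu lay below 4 on all these arrays and overlapped in batch B. Prok2 lay below 4 in batch A, and C1ql3 overlapped there. Mean Prok2 in central SCN, 3.86 and 9.36, was above the dorsal 3.74 and 8.99. Mean C1ql3 in batch B was 10.49 in central and 10.37 in dorsal SCN. Further markers went against the region labels between dorsal and ventral SCN. Penk, Calb1 and Nts of the core were higher in dorsal SCN, with Penk at 8.59 and 9.53 against 6.20 and 7.29. Cck of the shell was lower, at 6.70 and 7.13 against 7.83 and 8.31. Avpr1a and Syt10 differed in direction between batches. Oxt, the oxytocin gene of neurons outside the SCN, was also present. It read 5.40, 8.83, 5.38 and 5.97 on pulsed dorsal arrays 1 to 4 and 8.98, 6.51, 8.95 and 9.60 on the sham arrays, so it varied by more than 3 log2 units between dorsal samples. In batch B both pulsed arrays lay about 3 log2 units or more below both sham arrays, and in batch A the groups overlapped. The part of this in the results below was not tested. Vip also varied, from 8.07 to 10.93 on the pulsed and from 6.87 to 10.55 on the sham arrays.

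The pulse left a small set of changed transcripts in the dorsal SCN. With all arrays, 24 of 13494 genes changed at an adjusted p under 0.05 (0.178% of genes tested; limma, Benjamini-Hochberg), of which 20 rose (0.148%) and 4 fell (0.0296%). Without pulsed array 4 the count was 41 (0.304%), with 34 higher (0.252%) and 7 lower (0.0519%). Of these, 20 genes passed in both fits, 4 with all arrays only and 21 without array 4 only. Nptx1 led both fits. Nectin3, Klb, Tesc and St8sia6 were among the genes that rose in both, and the clock genes Per2, Rora and Rorb passed without array 4. All 24 genes, and all 41, moved the same way in both batches with no overlap between pulsed and sham arrays within a batch, a separation that 5.94% of all genes tested also showed with all arrays and 13.8% without array 4. Fitting the replicate number as a block, since same-numbered arrays deviated together, gave 40 genes (34 higher, 6 lower) and, without array 4, 62 (50 higher, 12 lower). The blocked fits kept all 24 and all 41. The split between higher and lower genes depended on scaling: it was 21 to 11 after each array was centred on its median, and 36 to 13 after quantile normalization. The 8 dorsal arrays fitted alone gave 0 genes at an adjusted p under 0.05 in limma, with 428 at an unadjusted p under 0.05, so the calls rest on the spread shared over the 24 arrays. Leaving out each dorsal array in turn gave 12 to 41 genes, and 12, 12 and 13 were left without sham array 1, 2 or 3.

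Nptx1 encodes neuronal pentraxin 1, a secreted protein that gathers AMPA-type glutamate receptors at synapses. It read 7.36, 7.37, 9.52 and 8.45 on pulsed arrays 1 to 4 and 5.04, 4.80, 6.995 and 7.07 on sham arrays 1 to 4. Every pulsed array lay more than 1 log2 unit above both sham arrays of its batch. The change was 2.20 ± 0.24 (SE, 4 against 4 arrays; 4.58-fold; adjusted p = 6.4e-05, limma), and 2.41 ± 0.22 without array 4. It was 2.44 in batch A and 1.95 in batch B.

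Egr3 is an activity-induced zinc finger transcription factor. It read 4.55, 4.12, 7.72 and 8.34 on the pulsed and 2.74, 2.84, 3.69 and 4.91 on the sham arrays. Its change of 2.64 ± 0.51 was the largest among the 24 genes (adjusted p = 0.0287, limma). However, its sham values in batch A and on sham array 3 of batch B lay below 4, where the scale resolves little. Egr3 did not pass without pulsed array 4 (adjusted p = 0.0681) or without sham array 3 (adjusted p = 0.168), and its other probe set showed 0.05. Creb3l1 is a membrane-bound factor of the CREB3 family that is released by proteolysis. It rose by 1.47 ± 0.27 (adjusted p = 0.0192, limma) and by 1.52 without array 4. Its sham values in batch A, 3.48 and 3.98, also lay below 4. For 8 of the 24 genes the mean of the lower group was below 4 in batch A, batch B or both.

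**Figure D2:**
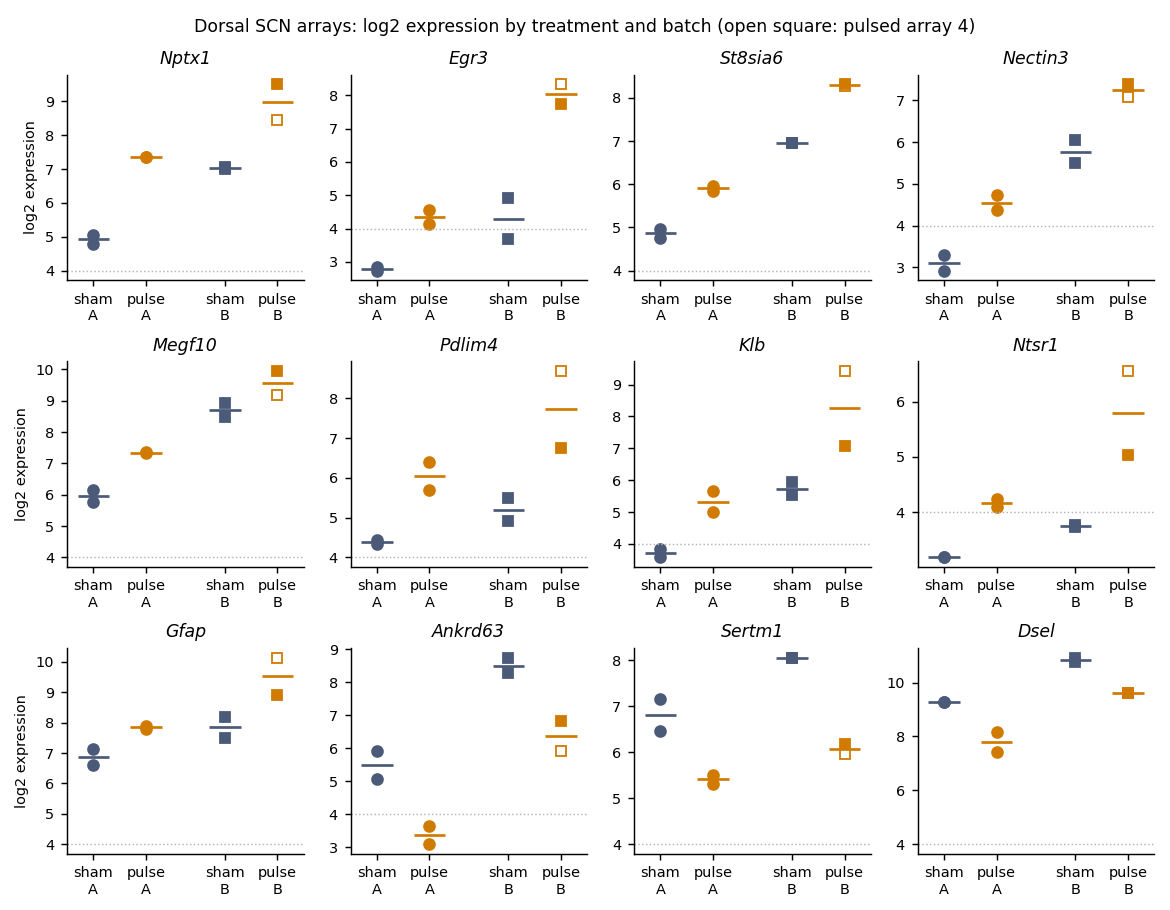
Log2 expression on the 8 dorsal arrays for 12 genes that passed with all arrays, by treatment and batch (circles batch A, squares batch B, open square pulsed array 4). Bars are means of 2 arrays and the dotted line marks log2 4. In each panel the pulsed arrays lie apart from the sham arrays of the same batch, above them for the first 9 genes and below them for Ankrd63, Sertm1 and Dsel.

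The genes that follow are set out by what their products are known to do, an order chosen after their values were seen, with no list or test behind it. Nectin3 encodes an immunoglobulin-like adhesion protein of adherens junctions and synapses. It read 4.37, 4.73, 7.40 and 7.09 on pulsed arrays against 2.92, 3.29, 5.49 and 6.05 on sham arrays, with no overlap within either batch. Its change was 1.46 ± 0.21 (adjusted p = 0.00231) and 1.52 without array 4. Both sham values of Nectin3 in batch A lay below 4. The 6 probe sets named Nectin3 differed, from -0.13 to 1.46 with all arrays. Megf10, an engulfment receptor that astrocytes use to clear synapses, read 7.35, 7.34, 9.95 and 9.18 after the pulse and 6.16, 5.77, 8.49 and 8.93 after sham. Megf10 rose by 1.12 ± 0.18 (2.17-fold, adjusted p = 0.00494) and by 1.27 without array 4. Sema3a, a secreted repellent of growing axons, rose by 1.55 ± 0.30 with all arrays (adjusted p = 0.0246) but missed the threshold without array 4 (1.25, adjusted p = 0.0537; 0.037 with the replicate block). Epha5, an ephrin receptor, rose by 0.87 ± 0.17 (adjusted p = 0.0244), and Unc5c, a netrin receptor, by 0.61 ± 0.13 (adjusted p = 0.0433). The 4 probe sets of Epha5 differed, from 0.08 to 0.87 with all arrays, and the dimmer ones of Sema3a showed 0.60 and 0.06. Dock10 rose by 1.02 ± 0.19 (adjusted p = 0.0204, limma), and its other probe set, with a mean of 3.47, showed 0.61 with all arrays. Epha5, Unc5c and Dock10 passed in both fits.

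Klb encodes β-Klotho, the coreceptor through which the hormone FGF21 acts. It read 4.99, 5.65, 7.07 and 9.43 on pulsed arrays and 3.57, 3.83, 5.93 and 5.54 on sham arrays, and array 4 held the highest value by more than 2 log2 units. The change was 2.07 ± 0.38 with that array (adjusted p = 0.0199, limma) and 1.51 ± 0.27 without it (adjusted p = 0.0167, limma). Both sham values of Klb in batch A lay below 4, and its other probe set, with a mean of 3.02, showed 0.16 with all arrays. Ntsr1, a receptor of the peptide neurotensin, read 4.09, 4.24, 5.04 and 6.56 against 3.19, 3.18, 3.77 and 3.73, so that all its sham values were below 4. No array outside the pulsed dorsal group read above 4, so Ntsr1 met the filter for testing through these 4 arrays, and its p is not independent of that filter. Ntsr1 rose by 1.52 ± 0.28 (adjusted p = 0.0204, limma) and by 1.06 ± 0.16 without array 4 (adjusted p = 0.00471, limma). With no filter its adjusted p was 0.0232 with all arrays (limma). In the fit without array 4 the filter still counted that array, so Ntsr1 was tested there through an array left out. No fit without the filter was made in that case. Il1rap, the accessory chain of the interleukin-1 receptor, rose by 1.08 ± 0.22 with all arrays (adjusted p = 0.0391) and missed the threshold without array 4 (1.00, adjusted p = 0.0664).

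Tesc, which encodes the calcium-binding protein tescalcin, read 7.62, 7.79, 8.71 and 10.24 after the pulse and 6.32, 6.22, 8.09 and 7.93 after sham. It rose by 1.45 ± 0.23 (2.73-fold, adjusted p = 0.00494) and by 1.16 without array 4. Pdlim4, an actin-associated LIM-domain protein, read 6.40, 5.69, 6.76 and 8.70 against 4.33, 4.43, 5.49 and 4.92. The change in Pdlim4 was 2.10 ± 0.34 (4.27-fold, adjusted p = 0.00573) with array 4, its highest value, and 1.63 ± 0.26 without it. S100a10, the annexin A2 partner p11, rose by 1.58 ± 0.28 (adjusted p = 0.0148), and Lgals1, the β-galactoside-binding lectin galectin-1, by 1.45 ± 0.25 (adjusted p = 0.0114). Their next brightest probe sets showed 0.56 for S100a10 and 0.58 for Lgals1 with all arrays. Emd, which encodes the inner nuclear membrane protein emerin, rose by 0.74 ± 0.15 (adjusted p = 0.0385). St8sia6, an enzyme that adds sialic acid to glycans, read 5.85, 5.96, 8.33 and 8.28 after the pulse and 4.97, 4.77, 6.96 and 6.97 after sham, a tight separation in both batches. St8sia6 rose by 1.19 ± 0.16 (2.28-fold, adjusted p = 0.00123) and by 1.15 without array 4. BC030500, known only by its clone name, rose by 0.60 ± 0.12 (adjusted p = 0.0419).

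Gfap, the intermediate filament of astrocytes, was the single astrocyte marker that passed. It read 7.91, 7.80, 8.92 and 10.14 on the pulsed arrays and 7.12, 6.60, 7.51 and 8.20 on the sham arrays, with array 4 the highest. The change was 1.33 ± 0.26 (adjusted p = 0.0319) and 1.00 ± 0.21 without array 4 (adjusted p = 0.0441), and without sham array 3 it missed the threshold (adjusted p = 0.168). The mean over the 16 astrocyte markers was 8.84, 8.50, 10.45 and 9.46 on the pulsed and 8.53, 8.55, 10.39 and 10.47 on the sham arrays, so the groups overlapped in batch A and array 4 was the lowest of batch B. The median log2 change of these markers was -0.19 with all arrays and 0.01 without array 4, beside -0.03 and -0.02 over all genes tested. Vim, another glial filament gene, showed 1.25 (adjusted p = 0.113), and 0.86 without array 4. In tissue pieces, fewer cells of a type and less RNA per cell cannot be told apart.

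Fewer genes fell. Ankrd63, which encodes a little-studied ankyrin repeat protein, read 3.09, 3.65, 6.82 and 5.93 after the pulse and 5.92, 5.07, 8.27 and 8.75 after sham. It fell by 2.13 ± 0.34 on the log2 scale (adjusted p = 0.00494) and by 1.99 without array 4, with both pulsed values of batch A below 4. Sertm1, a small membrane protein, read 5.51, 5.31, 6.17 and 5.96 against 6.47, 7.16, 8.06 and 8.05. It fell by 1.69 ± 0.24 (adjusted p = 0.00138). Dsel, an enzyme related to the epimerase that makes dermatan sulfate, read 8.17, 7.41, 9.62 and 9.61 against 9.28, 9.28, 10.78 and 10.92. It fell by 1.36 ± 0.18 (adjusted p = 9.5e-04). Mycl, a Myc-family transcription factor, fell by 0.97 ± 0.19 with all arrays (adjusted p = 0.0287) and missed the threshold without array 4 (adjusted p = 0.0586). Ankrd63, Sertm1 and Dsel passed in both fits.

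Of the 24 genes, 9 kept their call whichever dorsal array was left out: Nptx1, Dsel, St8sia6, Sertm1, Nectin3, Tesc, Megf10, Ankrd63 and Pdlim4. The other 15 lost it at least once, with adjusted p-values in the least favourable case from 0.0676 for Lgals1 without sham array 1 to 0.228 for Unc5c without sham array 2. In the fit without pulsed array 4, leaving out a further dorsal array kept the calls of 6 genes, which were Nptx1, Dsel, St8sia6, Nectin3, Megf10 and Pdlim4.

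The genes that passed only without array 4 included several of the circadian system. Prok2 encodes prokineticin 2, a peptide by which the SCN signals its phase to other brain areas. It read 7.22, 7.49, 10.51 and 8.56 on pulsed and 3.54, 3.93, 8.83 and 9.15 on sham arrays. Array 4 thus fell below both sham arrays of its batch. The dimmer probe sets of Prok2, with means of 3.84 and 3.82, showed 0.95 and 0.07 without array 4. Without array 4 the change in Prok2 was 2.74 ± 0.49 (3 against 4 arrays; adjusted p = 0.0154), with 3.62 in batch A, where both sham values were below 4, and 1.52 in batch B; with array 4 it was 2.08 ± 0.56 (adjusted p = 0.195). Per2, a negative limb gene of the clock, read 6.63, 6.30, 9.68 and 9.10 against 4.55, 4.73, 8.82 and 8.52. The pulsed arrays lay above the sham arrays in both batches. The dimmer probe sets of Per2, with means of 4.08 and 3.10, showed 0.20 and 0.15 without array 4. Per2 rose by 1.44 ± 0.27 without array 4 (2.72-fold, adjusted p = 0.0208), with 1.83 in batch A and 1.01 in batch B. With all arrays its change was 1.27 ± 0.27 (adjusted p = 0.0539; 0.0449 with the replicate block). Rora and Rorb, nuclear receptors that activate Bmal1, rose by 1.01 ± 0.17 (adjusted p = 0.00709) and 0.90 ± 0.17 (adjusted p = 0.0183) without array 4. With all arrays Rora showed 0.60 and Rorb 0.76. Usp2, a deubiquitinase under clock control, fell by 1.01 ± 0.21 without array 4 (adjusted p = 0.043), and showed -0.89 with all arrays (adjusted p = 0.0944; 0.0479 with the replicate block).

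The rest of this set was mixed in role. Gjb2, which encodes the gap junction protein connexin 26, rose by 1.39 ± 0.23 (adjusted p = 0.00741), and Srxn1, which repairs oxidised peroxiredoxins, rose by 1.35 ± 0.24 (adjusted p = 0.017). Hpgd, which breaks down prostaglandins, rose by 0.87 (adjusted p = 0.0183; with all arrays 0.0682, and 0.0346 with the replicate block) and Ppp1r3c, a glycogen-targeting subunit of protein phosphatase 1, by 0.86 (adjusted p = 0.0329). Ezr, which links membrane to actin, rose by 1.05, and Wwtr1, the Hippo pathway coactivator TAZ, by 0.66. All dorsal Ezr values of batch A lay below 4, and its other probe set showed 0.14. Fgfr2, a fibroblast growth factor receptor, rose by 0.84. Rnf182 (0.88), Traf3ip1 (0.98), Peg10 (1.16), Pter (1.12), Prex1 (0.73) and Blcap (0.64) completed the higher genes. The lower genes beside Usp2 were Lrrc75a (-1.34), Ankrd34a (-1.07) and the Wnt receptor Fzd8 (-0.83). On pulsed array 4 the values of Peg10 (8.20), Prex1 (8.71), Pter (7.28), Blcap (10.5), Traf3ip1 (8.60), Srxn1 (9.39), Rora (10.4), Rnf182 (9.23) and Fgfr2 (6.80) lay below both sham arrays of batch B. Prex1 changed sign between the fits, from -0.09 with array 4 to 0.73 without it. Whether RNA quality made these differences was not tested.

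**Figure D3:**
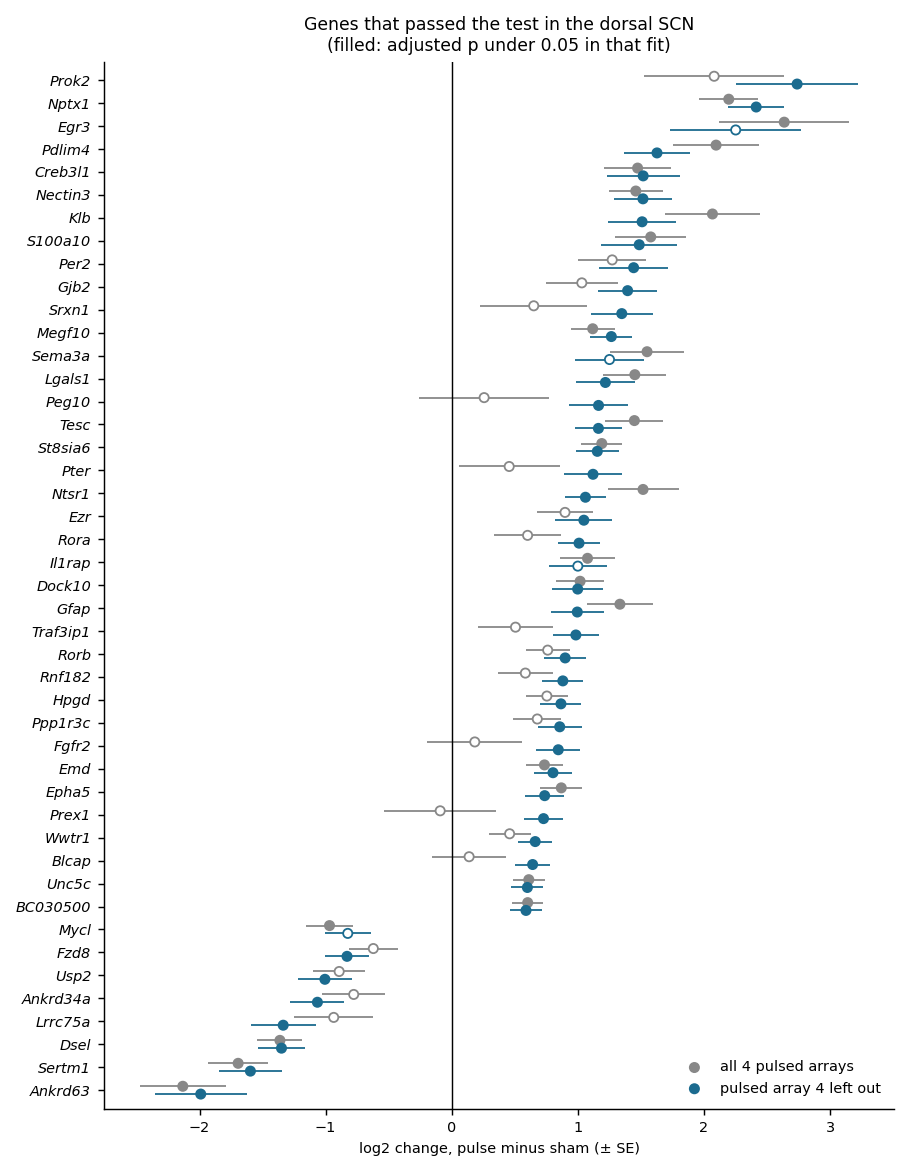
Log2 change (pulse minus sham, ± SE) of the 45 genes that passed in at least 1 fit, with all 4 pulsed arrays (grey) and without pulsed array 4 (blue); filled points had an adjusted p under 0.05 in that fit. Nptx1 lies near 2 in both fits, Prok2 moves from 2.08 to 2.74, and Prex1 crosses 0.

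The lists below are read against the share of all genes tested that rose, 0.148% with all arrays and 0.252% without array 4, and against the medians over all genes of -0.03 and -0.02. At these shares a list of 30 genes holds fewer than 1 such gene, so a count of 0 sets no list apart. Of 25 tested immediate early genes, 1 rose with all arrays (Egr3) and 0 passed without array 4, with a median change of 0.08 in both fits. Fos showed -1.49 ± 0.44 (adjusted p = 0.264), Fosb 0.04, Egr1 0.09 and Nr4a1 -1.08, and without array 4 these were -1.37, 0.34, 0.36 and -1.31. Fos read 6.25, 6.63, 8.83 and 8.91 after the pulse and 7.10, 7.99, 10.24 and 11.24 after sham, which put every pulsed array below the sham arrays of its batch without passing the test. Of 30 CREB-regulated and later activity-dependent genes, 1 passed with all arrays (Nptx1) and 2 without array 4 (Nptx1 and Per2), with medians of 0.20 and 0.24. Crem, whose product ICER ends CREB-driven transcription, showed 1.30 ± 0.31 (adjusted p = 0.105; 0.0397 with the replicate block) and 1.43 without array 4 (adjusted p = 0.0664; 0.043 with the block). Vgf, a granule protein precursor, showed 1.18 (adjusted p = 0.0973). None of the 15 MAP kinase feedback inhibitors passed, with medians of -0.01 and 0.19. Socs3, a brake on cytokine signalling, showed 1.75 with array 4, where it read 8.09, and 1.09 without it (adjusted p = 0.26 and 0.505).

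Clock genes were described in lists. The list of activators and nuclear receptors mixes roles, as it also holds Nr1d1 and Nr1d2, which repress Bmal1. Of its 8 tested genes, 0 passed with all arrays and 2 rose without array 4 (Rora, Rorb), with medians of 0.26 and 0.42. Arntl, the Bmal1 gene, showed 0.65 ± 0.20 (adjusted p = 0.321) and Clock 0.42 (adjusted p = 0.468), and without array 4 they showed 0.69 and 0.55. Of 9 repressors, Per2 alone passed, and only without array 4, with medians of 0.10 and 0.15 over the list. Per1 showed 0.10 ± 0.38 with all arrays and 0.69 ± 0.25 without array 4 (adjusted p = 0.435), as pulsed array 4 read 5.14 against 7.11 and 6.69 on the sham arrays of its batch. Cry1 showed 0.25, Cry2 -0.64 and Per3 -0.21 with all arrays. Without array 4 Cry1 showed 0.26, Cry2 -0.17 and Per3, with the opposite sign, 0.09. Of the 6 output factors none passed in either fit. Dbp showed 0.34 with all arrays, where array 4 read 11.60 against 10.42 on pulsed array 3, and 0.09 without array 4. Bhlhe40 showed 0.07 and 0.05, and the median of the list was 0.07 in both fits.

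**Figure D4:**
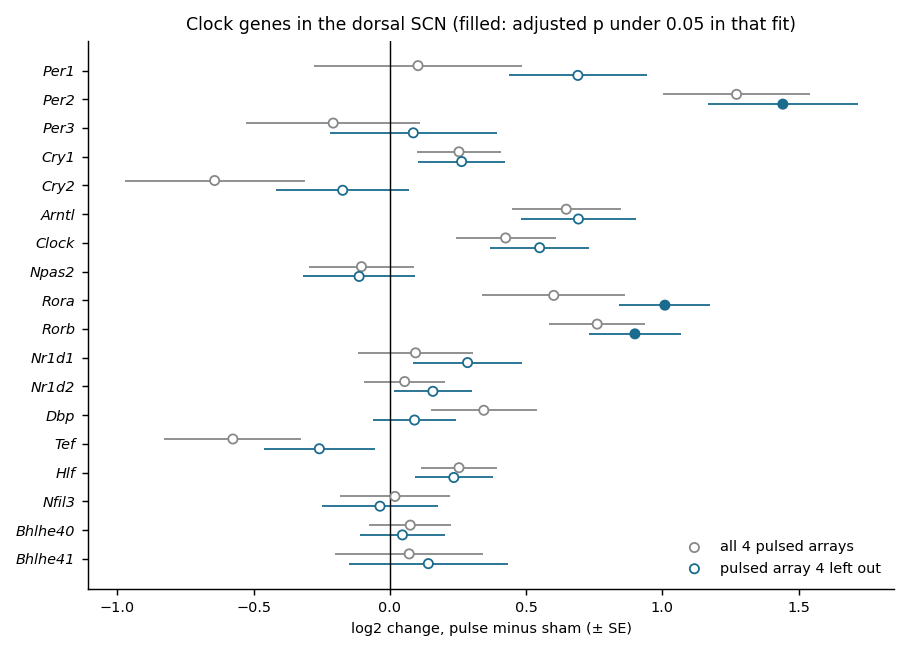
Log2 change (pulse minus sham, ± SE) of 18 clock genes in the dorsal SCN, with all 4 pulsed arrays (grey) and without pulsed array 4 (blue). Filled points, which are Per2, Rora and Rorb without array 4, had an adjusted p under 0.05.

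Of 9 shell markers 1 rose without array 4 (Prok2) and 0 passed with all arrays, with medians of 0.39 and 0.46. Avp read 8.91, 9.14, 10.05 and 8.09 on pulsed and 7.52, 8.06, 9.50 and 9.24 on sham arrays, so 3 pulsed arrays lay above the sham arrays of their batch and array 4 below them. Avp showed 0.46 (adjusted p = 0.59) with all arrays and 1.00 ± 0.23 without array 4 (adjusted p = 0.0719; 0.0283 with the replicate block). Of 10 core markers 1 rose without array 4, Rora, which stands in that list too, and the medians were 0.27 and 0.18 with and without array 4. Vip showed 1.07 (adjusted p = 0.448) and Grp, gastrin-releasing peptide, 0.76 (adjusted p = 0.176), and without array 4 they showed 0.76 and 0.73. The SCN-enriched transcription factors had 2 of 14 higher without array 4, again Rora and Rorb (medians 0.19 and 0.21), and the 30 neuropeptide and granule genes had 1, again Prok2 (medians 0.05 and -0.03).

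The other lists had no member that passed in either fit. Among markers of cells that dissection can include, the medians with and without array 4 were 0.23 and 0.19 for 15 oligodendrocyte genes, 0.17 and 0.06 for 13 microglial genes, and -0.03 and 0.02 for 14 endothelial and mural genes. They were 0.29 and 0.21 for 7 genes of ependymal cells and tanycytes and -0.15 and -0.08 for 14 neuronal genes. The single blood gene tested, Hba-a2, showed -0.84 with array 4, where it read 4.47 against 7.50 to 7.67 on the other dorsal arrays of batch B, and -0.16 without it. The 11 genes of neighbouring hypothalamic neurons stood at -0.10 with array 4 and at -0.42 without it. In the fit without array 4, Trh showed -1.67 (adjusted p = 0.0883, limma) and Oxt -1.86 (adjusted p = 0.455, limma). Tac2 of the same list went the other way, with means of 6.62 after the pulse and 5.21 after sham in batch A. In batch B, with array 4 included, the means of Tac2 were 7.81 and 6.89. The mean of the whole list was 4.56, 5.04, 5.09 and 5.73 on pulsed and 5.06, 4.95, 6.00 and 6.00 on sham arrays, lower after the pulse in batch B and overlapping in batch A. The part of this difference in the results above was not tested. With and without array 4, the medians were 0.14 and 0.12 for 24 chaperones, 0.00 and 0.08 for 17 glucocorticoid and stress-response genes, -0.16 and -0.08 for 18 glutamate receptors and -0.22 and -0.21 for 10 GABA receptors. They were -0.04 and -0.08 for 18 potassium channels and -0.23 and -0.12 for 18 sodium, calcium and HCN channels. For 24 ribosomal proteins they were -0.01 and 0.00, and for 33 oxidative phosphorylation genes -0.06 and -0.08. Kcnj9, an inward rectifier, was listed with -0.99 without array 4 (adjusted p = 0.0995; 0.0277 with the replicate block).

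Promoter letters were read as a description, since CREB and the clock factors bind known motifs. The 250 bases before the annotated start, from RefSeq (GRCm38.p6), were matched for 29 of the 37 genes that were higher in at least 1 fit and for 6 of the 8 that were lower. Not matched, and so not searched, were Creb3l1, Egr3, Lgals1, Megf10, Nptx1, Peg10, Per2 and S100a10 among the higher and Fzd8 and Lrrc75a among the lower genes. The full CREB motif TGACGTCA, searched on both strands, was in 0 of the 29, 0 of the 6 and 1.77% of 27025 genes in the table. Its short form TGACG, which the full motif contains, was in 8 of the 29 (27.6%), 0 of the 6 and 19.8% of all genes. The E-box CACGTG, the site of CLOCK and BMAL1, was in 2 of the 29 (6.9%; Prok2 and Ppp1r3c), 0 of the 6 and 6.86% of all. Shown here are 1 window of a higher and 1 of a lower gene, taken by smallest p in either fit among windows that end exactly at the annotated start of the gene (for Ntsr1 with the limit on its p given above). They are Ntsr1 at chr2:180499726-180499975 on the plus strand and Sertm1 at chr3:54915888-54916137 on the minus strand. Both are written 5′ to 3′, with the short CREB motif, here on the reverse strand, in capitals.
Ntsr1: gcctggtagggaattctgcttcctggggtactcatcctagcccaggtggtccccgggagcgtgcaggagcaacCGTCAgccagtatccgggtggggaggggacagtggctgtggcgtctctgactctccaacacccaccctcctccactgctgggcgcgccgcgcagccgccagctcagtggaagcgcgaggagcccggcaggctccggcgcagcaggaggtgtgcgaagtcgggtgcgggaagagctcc
Sertm1: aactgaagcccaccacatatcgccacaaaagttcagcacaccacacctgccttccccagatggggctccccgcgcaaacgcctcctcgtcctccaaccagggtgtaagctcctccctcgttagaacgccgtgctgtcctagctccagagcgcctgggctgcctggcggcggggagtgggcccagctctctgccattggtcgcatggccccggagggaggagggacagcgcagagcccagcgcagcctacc
The Ntsr1 window holds 1 short CREB motif and no E-box, and the Sertm1 window holds none of the 3 motifs.

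The dorsal response was then set beside that of the other subregions, from the same fit. With all arrays the pulse changed 97 genes in ventral (0.719%) and 52 in central SCN (0.385%). Leaving out pulsed dorsal array 4, which changes the spread that the regions share in the fit, gave 207 (1.53%) and 164 (1.22%). Of the 24 dorsal genes 14 also passed in ventral SCN, which is 58.3% of the dorsal and 14.4% of the ventral genes. In central SCN 11 of them passed (45.8% and 21.2%), and 8 passed in neither. In the fit without array 4, 27 of the 41 also passed in ventral SCN (65.9% of the dorsal and 13.0% of the ventral genes) and 27 in central SCN (65.9% and 16.5%), and 10 in neither. A gene that passes in 1 region and not in another is not shown to differ, so the difference of the light changes was tested for every gene.

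Tinf2, which encodes the telomere protein TIN2, was the single gene whose light change differed between dorsal and ventral SCN (1 of 13494, 0.00741%; 465 at an unadjusted p under 0.05). On dorsal arrays Tinf2 read 5.90, 5.55, 7.20 and 6.85 after the pulse and 4.68, 4.95, 6.63 and 6.94 after sham, with overlap in batch B. On ventral arrays it read 6.56, 7.01, 8.09 and 8.31 against 4.50, 4.31, 5.69 and 6.06, far apart in both batches. The change was 0.58 in dorsal and 2.35 in ventral SCN, a difference of -1.78 ± 0.26 (adjusted p = 0.00935; 0.0152 without pulsed array 4; limma). With the mean of the gene's probe sets in place of the brightest it was -1.03 (adjusted p = 0.233). Ehd3, which encodes an endocytic recycling protein, was next, with 0.04 in dorsal and 1.41 in ventral SCN (difference -1.37 ± 0.24, adjusted p = 0.0634; 0.0327 with the replicate block).

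Genes that led the dorsal list differed in size between regions without passing that test. They were picked for passing in dorsal SCN, which favours larger changes there. Dock10 showed 1.02 in dorsal, 0.46 in central and -0.19 in ventral SCN, with a dorsal minus ventral difference of 1.21 ± 0.27 (adjusted p = 0.715). Klb showed 2.07, 0.72 and 0.23 in the same order, Lgals1 1.45, 0.66 and 0.17, and Sema3a 1.55, 0.74 and 0.16. Without array 4 the dorsal changes were 1.51 for Klb, 1.22 for Lgals1 and 1.25 for Sema3a. Nptx1 was smallest in the dorsal region, with 2.20 in dorsal, 3.06 in central and 3.33 in ventral SCN. Dsel showed -1.36, -0.93 and -0.37. Among the genes with the smallest p after these, Trim24 differed from ventral SCN by 1.07 and Plch1 by 0.96 (adjusted p = 0.715 and 0.883). Against central SCN, limma called 0 genes at an adjusted p under 0.05, with 388 at an unadjusted p under 0.05 and a smallest adjusted p of 0.984. The smallest p there belonged to Smad2 (0.88), Neto1 (1.20), Plch1 (0.92), Nectin3 (1.22) and Ehd3 (-0.95).

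**Figure D5:**
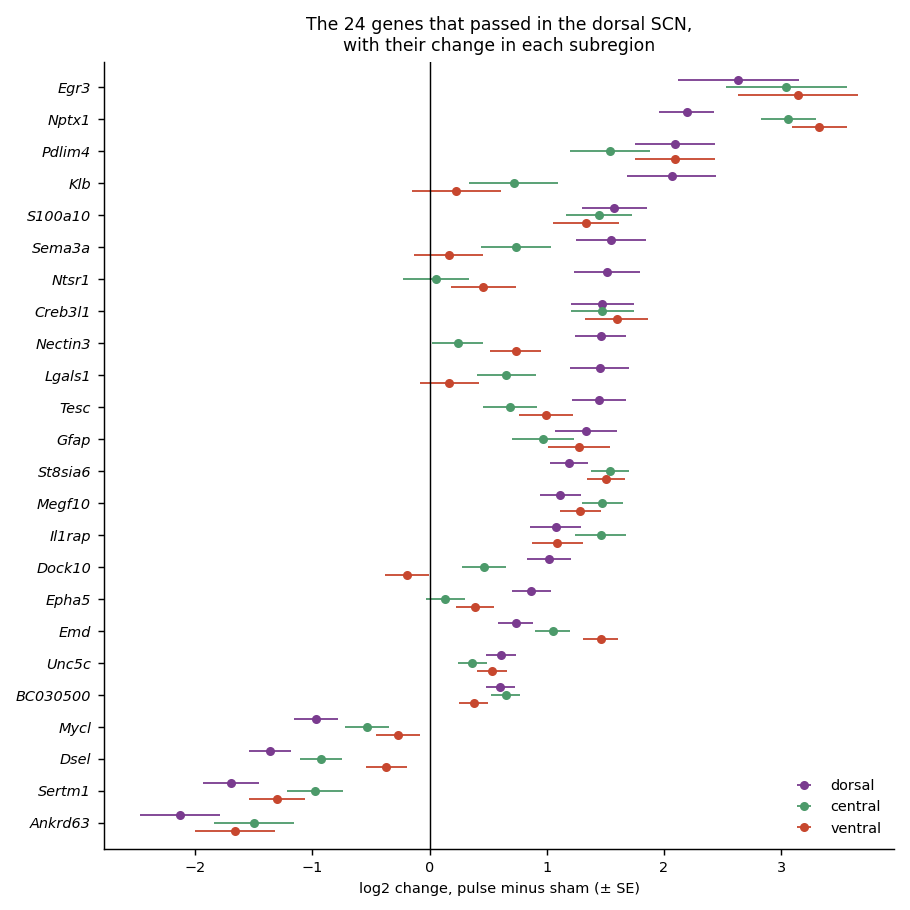
Log2 change (pulse minus sham, ± SE) of the 24 genes that passed in the dorsal SCN with all arrays, in dorsal (purple), central (green) and ventral SCN (red). Klb, Sema3a, Lgals1 and Dock10 lie highest in dorsal and Nptx1 and Emd highest in ventral SCN, and for none of the 24 did the difference between regions pass the test.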

How the data were processed

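Gene expression was measured on 24 Affymetrix mouse arrays, 1 per sample. The deposited table holds log2 expression values for 45101 probe sets, made by the authors, with MAS5, GCRMA 2.32.0 and R 3.0.2 listed, without their roles, per the submitters' processing notes. The normalization between batches is stated in none of the sources used here. Of the probe sets, 34945 had 1 gene symbol in the platform annotation, 932 several and 9160 none, and 64 were controls. The Entrez identifiers of 34741 were found in a RefSeq gene table, which changed 0 symbols. For each gene the brightest probe set, by its mean over the 24 arrays, was used, and 13494 of 18193 genes, those above log2 4 on at least 4 arrays, were tested. The number of arrays limits the precision.

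Samples were grouped by the region, treatment and batch in their titles. One limma 3.58.1 fit (R 4.3.3; lmFit, eBayes, two-sided) of 6 group means and the batch on all 24 arrays gave the light change in each region and the differences between regions, with 17 residual and 4.7 prior degrees of freedom (16 and 5 without pulsed dorsal array 4). P-values were adjusted by Benjamini-Hochberg over the genes tested, and genes under 0.05 are said to have changed, risen or fallen. Errors after ± are standard errors. Fold changes are 2 to the power of the log2 change. The script was tested on simulated data. Replicates are separate samples per the labels, which do not name animals, so p-values measure the spread between these samples.

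Same-numbered arrays deviated together: the correlation of their deviations from their group and batch means was 0.344 between pulsed and sham dorsal arrays in batch A and 0.109 in batch B, and from 0.185 to 0.623 across regions. With 2 arrays per group and batch this is 1 correlation for both numbers, and the value of 0.109 includes pulsed array 4. The replicate number as a block was therefore fitted beside the main model. The main model treats the 24 arrays as independent, and the labels do not say what arrays of the same number share.

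Named genes are, in each fit, the 12 higher and 12 lower genes that changed most among those that passed with 1 direction in both batches (by p up to 5 where fewer passed), a panel of clock, light-response and marker genes, from each described list its 4 members of smallest p, and the genes with the smallest p in the differences between regions. Genes that passed outside this rule are named to complete the counts. The comparison, the 26 gene lists, the rule and the left-out array were chosen with earlier results of these data known.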

Additional observations from a re-analysis of the deposited data

Results flagged for a closer look

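Pulsed dorsal array 4 lay far from the other 3 pulsed dorsal arrays in its 3′ minus 5′ difference for Gapdh (5.41) and Actb (4.14) and in its median correlation with its batch (0.872). A further 11 of the checks, made on values adjusted for batch within the 4 arrays of a group, found an array apart. In all, 14 of 98 checks did so. This count cannot be set against a share given by chance, since the Gapdh difference was what singled array 4 out. Blcap, Peg10, Prex1, Pter and Rnf182 also passed only without that array. Of the 11, those on pulsed array 4 were Blcap (10.5), Gfap (10.1), Peg10 (8.20), Prex1 (8.71), Pter (7.28) and Rnf182 (9.23). On sham array 3 they were Egr3 (3.69) and Fzd8 (6.57), and on sham array 1 Lgals1 (6.27), Pter (4.98) and Sertm1 (6.47). The light change of Tinf2 differed between dorsal and ventral SCN by -1.78 in the test of that difference (adjusted p = 0.00935, limma).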

How the results depend on the processing

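The 24 genes gave 527 values under the alternatives, of which 326 stayed past the threshold, 201 kept their direction below it and 0 reversed. For the 41 genes without pulsed array 4 these were 344, 352 and 0 of 696. Prex1, not called with all arrays, showed -0.40 without pulsed array 3 and turned from -0.09 to 0.73 without array 4, 0.66 with array weights and 0.73 with pulsed central array 2 left out as well.

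The 24 became 0 without the batch term, 2 within batch A, 0 within batch B, 49 with quantile normalization, 353 with array weights (which gave array 4 a weight of 0.0555), 40 with the replicate block, 0 in the 8 dorsal arrays alone, 1 in 7 of them and 54 with pulsed central array 2 left out too, an alternative chosen after seeing the data. Leaving out single dorsal arrays gave 12 to 41. For the 41 the same settings gave 0, 2, 0, 70, 624 and 62, the 7 dorsal arrays alone 1, and leaving out a further array 10 to 38. Repeating the settings without array 4 was also chosen after seeing the data. Genes differing between dorsal and ventral SCN numbered 0 without the batch term, within batch A, within batch B and with the mean of probe sets, 2 with median centring, quantile normalization, the replicate block or both arrays left out, 6 with array weights, and 1 to 2 when single arrays were left out. Against central SCN 0 were called under each of these settings with array 4 kept. Beside the calls given with it above, the block changed no call of a named gene. The cause of these changes was not tested. The number of arrays and the low signal of batch A limit genes near log2 4.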
